A study of Homo sapiens with 12 samples.

Results

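The 45 genes described here copy the genome in S phase of the cell cycle or control the entry into it. They were taken by name and role, from a list drawn up with earlier results of these data known: 11 genes of origin licensing, 6 of helicase activation, 5 of the sliding clamp and its loader, 3 of the single-strand binding complex, 6 of the DNA polymerases and primase, 2 of Okazaki fragment maturation, 3 of nucleotide supply, 3 of G1/S control, 2 of fork protection, 3 of chromatin assembly and DNA methylation upkeep, and DTL, which turns over a licensing factor. All 45 were found among the 62757 rows of the deposited table, and all 45 were among the 15524 genes whose mean rlog over the 12 libraries was at least 3. The cells were U87, an established human glioblastoma line, and poly(A) RNA was sequenced from 12 libraries. Cells were exposed for 72 h to vehicle, to compound 1 at 30 µM, to compound 4 at 10 µM or to compound 5 at 5 µM, with 3 libraries per group that the labels describe as biologically independent. The labels name the compounds only by these numbers and do not say what the vehicle was. The series title names taxodione and paclitaxel, and the labels do not tie either name to a number. No group carried an engineered allele, and every library came from this same line.

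Before replication, origins are licensed: the origin recognition complex, CDC6 and CDT1 load the MCM2 to MCM7 helicase onto DNA. In S phase CDC45 and the GINS complex join that helicase, polymerases copy both strands behind it, and the clamp PCNA holds the polymerases and maturation enzymes on DNA. Many of these genes are transcribed from late G1 under E2F transcription factors, so their RNA is used as a sign of cells near or in S phase, and in a fast-dividing tumour line it is abundant.

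Values are rlog, a log2 scale on which the differences of genes with few reads are shrunk towards 0, so a difference between groups is a log2 fold change, conservatively sized for weakly expressed genes. The number of reads behind each library is unknown, and levels were not compared between genes because rlog is not corrected for transcript length. The median rlog of all tested genes lay between 8.59 and 8.61 in the 12 libraries. Of the markers of this line, the mean rlog was 15.98 for VIM, 15.20 for CD44, 10.55 for NES and 5.71 for GFAP. The astroglial markers S100B, SOX2 and AQP4 were at 0.774, 0.0917 and -2.21, near or at the level of genes without reads. Of 8 leukocyte markers, CD3E and AIF1 were also at -2.21 and PTPRC was at 0.0689, and 2 passed the filter on low values. CSF1R, which passed, rose by 0.29 with compound 4 and by 0.24 with compound 5 (adjusted p = 7.15e-05 and 0.000981). The summed level of the leukocyte list (2 to the power of rlog) was 229 to 236 with vehicle, 221 to 257 with compound 1, 267 to 289 with compound 4 and 265 to 276 with compound 5, and its part in the results was not tested. In bulk RNA, a change in the share of cells in S phase and a change in RNA per S phase cell cannot be told apart.

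Replication genes were higher after compound 4 and after compound 5 than with vehicle, and a smaller set was lower after compound 1. Tested with limma across all genes and called at a Benjamini-Hochberg adjusted p under 0.05, 31 of the 45 rose with compound 4 and 0 fell, against 19.0% of all tested genes that rose and 21.6% that fell. At an unadjusted p under 0.05, 35 were higher and 0 lower. With compound 5, 35 rose and 0 fell, against 15.9% and 19.2% of all genes, and 37 were higher and 0 lower at an unadjusted p under 0.05. With compound 1, 10 of 45 fell, against 5.63% of all genes, and 0 rose, against 5.24%. At an unadjusted p under 0.05, 18 were lower and 1 was higher with compound 1. Of all 15524 tested genes at that unadjusted threshold, 2087 were lower and 1787 higher with compound 1. The counts were 3942 lower and 3515 higher with compound 4, and 3647 lower and 3182 higher with compound 5. The median difference over the 45 genes was -0.08 with compound 1, 0.16 with compound 4 and 0.21 with compound 5, while the median over all tested genes was -0.00287, -0.00132 and -0.000945. The median with compound 1 was -0.03 without compound 1 replicate 3, -0.05 without vehicle replicate 2 and -0.13 without compound 1 replicate 2.

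The same picture held library by library for compounds 4 and 5, but not in every library for compound 1. Measured from the vehicle mean of each gene, the median over the 45 genes was -0.06, 0.06 and -0.0029 in vehicle replicates 1, 2 and 3. It was 0.16, 0.20 and 0.15 in the compound 4 libraries and 0.31, 0.15 and 0.18 in the compound 5 libraries, so all 6 lay above every vehicle library. In the compound 1 libraries it was -0.07, 0.0066 and -0.20, so replicate 3 was the lowest library, while replicate 2 lay inside the vehicle range. For 36 genes every compound 4 library exceeded every vehicle library, against 25.2% of all tested genes, and for 35 genes every compound 5 library did, against 20.9%. For 0 genes were all compound 4 or all compound 5 libraries below, against 28.2% and 23.2% of all genes. For 9 of the 45 genes every compound 1 library was below every vehicle library, a share close to the 16.7% of all genes. This count does not set the 45 genes apart. For 0 genes was every compound 1 library above, against 13.2% of all genes. The mean of compound 1 was the lowest of the 4 group means for 41 genes, and the highest mean belonged to compound 5 for 30 genes and to compound 4 for the other 15.

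**Figure D1:**
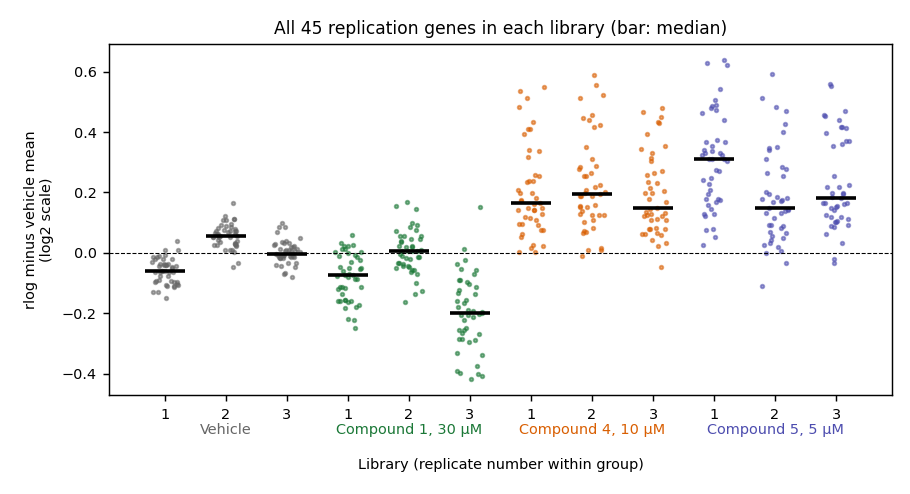
Each point is 1 of the 45 replication genes in 1 library, as rlog minus that gene's mean over the vehicle libraries (y axis, log2 scale), and the bar is the library's median over the 45 genes. The compound 4 and 5 libraries have medians from 0.15 to 0.31, all above the vehicle libraries, and compound 1 replicate 3 is the lowest at -0.20.

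**Figure D2:**
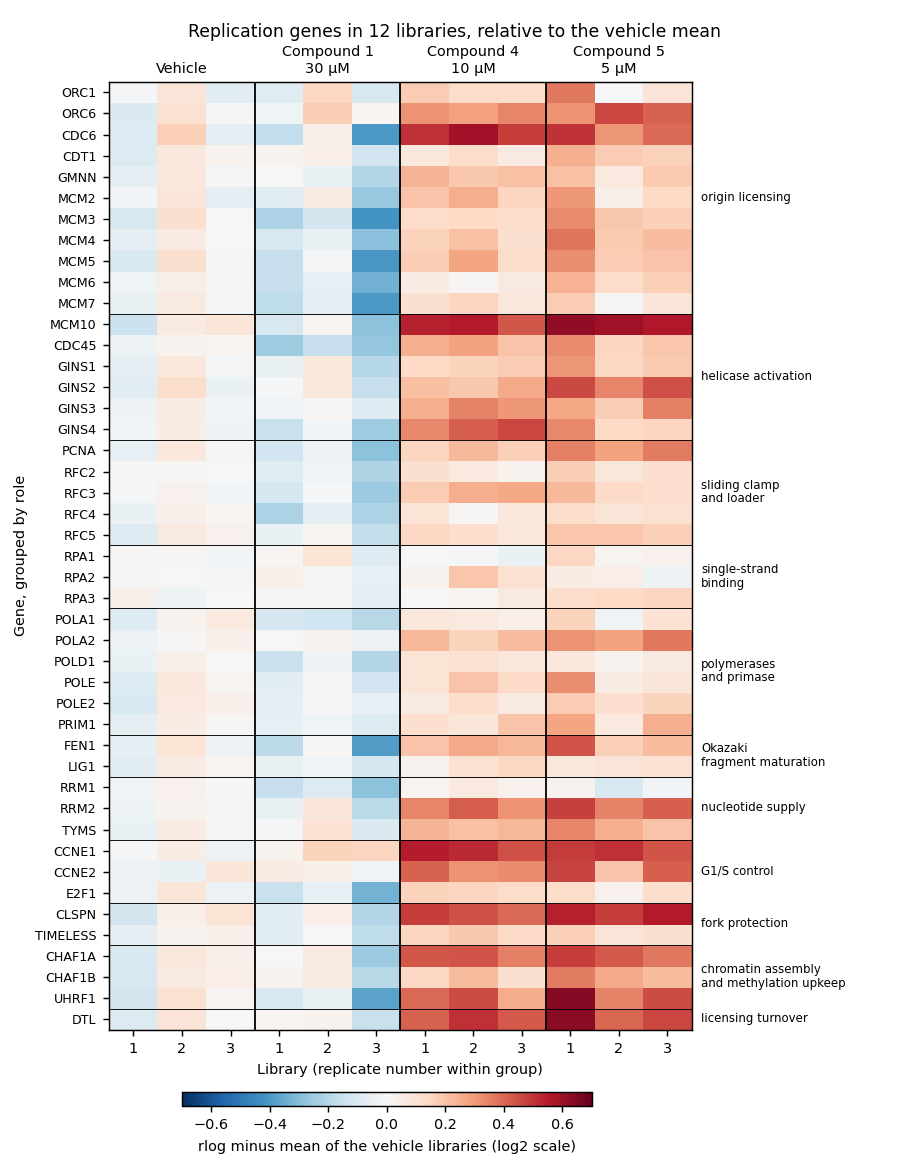
Colour gives rlog minus the vehicle mean (log2 scale) for each of the 45 genes (rows, grouped by role) in each of the 12 libraries (columns). MCM10, CDC6, CCNE1, CLSPN, DTL and UHRF1 are among the darkest red rows under compounds 4 and 5, the RPA rows are pale in every group, and blue is concentrated in compound 1 replicate 3.

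The fall with compound 1 depended on single libraries and on settings. The 10 falls became 2 without compound 1 replicate 3, 2 without vehicle replicate 2, 6 without compound 1 replicate 1, 6 without vehicle replicate 3, 11 without vehicle replicate 1 and 18 without compound 1 replicate 2. Over all tested genes the 874 falls also became fewer in each of these fits. They were 445, 424, 533, 619, 512 and 863 in the same order. Of the 10 falls among the 45 genes, 0 kept the call under all 15 alternative settings and left-out libraries. On average, RNAs retained in the nucleus moved with the groups as well, though not all of those listed did. Of 8 nuclear noncoding RNAs, NEAT1 among them, 4 rose and 0 fell with compound 1. With compound 4, 4 rose and 1 fell (differences from -0.249 to 0.843), and with compound 5, 6 rose and 0 fell. The mean rlog over this list was 8.86, 8.92 and 9.05 in the vehicle libraries. It was 9.07, 9.07 and 9.26 in the compound 1 libraries, where replicate 3 held the highest value. It was 9.12, 9.10 and 9.14 with compound 4 and 9.09, 9.26 and 9.21 with compound 5, all above the vehicle libraries. With that mean as a covariate, 0 of the 45 replication genes fell with compound 1 (median difference -0.0094), while 36 rose with compound 4 (median 0.27) and 37 with compound 5 (median 0.33). Of all 15524 tested genes, 186 fell with compound 1 in that fit, against 874 without the covariate. With falls this rare, 0 of 45 does not set the replication genes apart. Rises over all tested genes numbered 2322 with compound 4 and 1346 with compound 5. Every compound library lay above every vehicle library in the nuclear RNA mean, so the covariate and the treatment cannot be told apart. These counts and medians are thus not corrected estimates.

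Promoter sequence was available in the RefSeq promoter table (GRCh38.p14) for 39 of the 45 genes, as 300 bases around each RefSeq start. An E2F word, meaning TTTGGCGC, TTTCCCGC, TTTGCCGC or TTTCGCGC on either strand, occurred in 21 of the 39 (53.8%), in 5.21% of the 11250 promoters of tested genes in that table and in 3.33% of all 27305. Further words were looked for later: CCAAT was in 61.5% of the 39 against 36.6% of tested genes, the GC box GGGCGG in 74.4% against 68.9%, and TTTGAA, a word of the cell cycle homology region of G2 and mitosis promoters, in 1 (RRM1, 2.56%) against 10.0%. The median GC content was 66.0% for the 39 and 65.0% for tested genes. The sequences below are the 180 bases upstream of the start, 5′ to 3′ on the strand of the gene, with E2F words in capitals. The first 6 belong to the genes with the largest differences under compound 4 or 5: MCM10 (chr10:13161378-13161557, plus strand), CDC6 (chr17:40287699-40287878, plus), CLSPN (chr1:35769979-35770158, minus), CCNE1 (chr19:29811811-29811990, plus), DTL (chr1:212035568-212035747, plus) and UHRF1 (chr19:4909321-4909500, plus). MCM6 (chr2:135876444-135876623, minus) and E2F1 (chr20:33686386-33686565, minus) are shown because they fell with compound 1 and hold several words, and they were picked after the search.
MCM10: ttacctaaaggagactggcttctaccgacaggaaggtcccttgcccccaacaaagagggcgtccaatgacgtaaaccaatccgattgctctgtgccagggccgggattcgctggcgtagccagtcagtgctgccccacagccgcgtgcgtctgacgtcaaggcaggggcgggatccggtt
CDC6: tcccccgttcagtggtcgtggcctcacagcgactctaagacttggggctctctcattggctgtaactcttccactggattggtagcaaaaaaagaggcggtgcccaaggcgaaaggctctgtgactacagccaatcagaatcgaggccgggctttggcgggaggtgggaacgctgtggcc
CLSPN: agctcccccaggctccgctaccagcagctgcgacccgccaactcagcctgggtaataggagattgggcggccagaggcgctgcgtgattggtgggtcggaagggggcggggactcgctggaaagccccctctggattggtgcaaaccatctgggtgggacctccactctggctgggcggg
CCNE1: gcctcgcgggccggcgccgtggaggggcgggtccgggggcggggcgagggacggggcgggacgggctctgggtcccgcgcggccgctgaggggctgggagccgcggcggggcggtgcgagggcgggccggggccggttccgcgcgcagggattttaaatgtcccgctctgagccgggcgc
DTL: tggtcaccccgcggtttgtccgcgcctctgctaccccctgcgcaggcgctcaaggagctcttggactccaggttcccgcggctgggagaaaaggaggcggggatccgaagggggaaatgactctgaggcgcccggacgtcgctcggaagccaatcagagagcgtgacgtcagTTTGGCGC
UHRF1: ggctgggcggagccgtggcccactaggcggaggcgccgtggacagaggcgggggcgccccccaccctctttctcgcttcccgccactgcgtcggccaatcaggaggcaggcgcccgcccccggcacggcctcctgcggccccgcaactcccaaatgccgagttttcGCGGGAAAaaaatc
MCM6: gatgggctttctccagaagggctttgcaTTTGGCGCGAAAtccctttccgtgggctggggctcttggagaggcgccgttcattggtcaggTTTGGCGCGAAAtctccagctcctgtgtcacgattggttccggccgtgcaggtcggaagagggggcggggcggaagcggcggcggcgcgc
E2F1: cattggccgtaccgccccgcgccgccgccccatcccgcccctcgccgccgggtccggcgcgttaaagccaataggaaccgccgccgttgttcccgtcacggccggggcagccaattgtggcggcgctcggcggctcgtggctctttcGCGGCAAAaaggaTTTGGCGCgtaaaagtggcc

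DTL and UHRF1 each carry a word close to the start, at positions -8 and -14. MCM6 holds 4 words as 2 overlapping pairs in which TTTGGCGC runs into the reverse complement of TTTCGCGC, and E2F1 holds words on both strands. MCM10 and CCNE1 hold none in the 300 bases searched. The word of CLSPN spans the start and that of CDC6 lies at position 8 inside the transcript, so neither is in capitals above. The median difference with compound 4 was 0.18 for the 21 genes with a word and 0.16 for the 18 without, and with compound 5 it was 0.21 and 0.19. With compound 1 it was -0.08 in both sets. Among the 21 genes with a word, 6 fell with compound 1, 14 rose with compound 4 and 17 rose with compound 5. Among the 18 without, the counts were 4, 12 and 13. A match is a description of these letters and not a binding site.

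Of the 11 origin licensing genes, 6 were higher after compound 4, 9 were higher after compound 5 and 3 were lower after compound 1. CDC6, the ATPase that recruits the MCM helicase to the origin recognition complex, had the largest difference of the 11 with compounds 4 and 5. Its rlog was 9.75, 10.01 and 9.78 with vehicle, 10.36, 10.44 and 10.33 with compound 4, 10.35, 10.16 and 10.25 with compound 5, and 9.67, 9.88 and 9.45 with compound 1. The compound 4 and 5 libraries all lay above the vehicle libraries, and the compound 1 libraries overlapped them. CDC6 rose by 0.53 (SE 0.0725, 1.44-fold, adjusted p = 1.27e-06) with compound 4 and by 0.40 (adjusted p = 7.64e-05) with compound 5, and its difference with compound 1 was -0.18 (adjusted p = 0.115). Of the origin recognition subunits, ORC6 rose by 0.32 with compound 4 and 0.40 with compound 5, whereas ORC1 did not pass (0.14 and 0.15, adjusted p = 0.108 and 0.0884). CDT1, the partner of CDC6 in loading, differed by 0.09 with compound 4 (adjusted p = 0.143) and rose by 0.19 with compound 5 (adjusted p = 0.00204). GMNN, which encodes the CDT1 inhibitor geminin, rose by 0.21 and 0.15 (adjusted p = 0.00197 and 0.0241). The call of GMNN with compound 5 was lost without compound 5 replicate 1 or 3 and without vehicle replicate 1 or 3 (adjusted p up to 0.130).

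The 6 subunits of the MCM helicase all had negative differences with compound 1, from -0.26 to -0.10, and positive ones with compounds 4 and 5, from 0.04 to 0.20 and from 0.09 to 0.26. Of the 6, 3 passed with each of compounds 1 and 4 and 5 passed with compound 5, and the subunits were not tested against each other. MCM3 rlog was 11.33, 11.55 and 11.44 with vehicle, 11.22, 11.31 and 11.02 with compound 1, 11.57, 11.58 and 11.56 with compound 4, and 11.77, 11.62 and 11.60 with compound 5. Every compound 1 library was below the vehicle libraries, and every compound 4 and 5 library was above them, narrowly for compound 4. MCM3 fell by 0.26 with compound 1 (SE 0.0567, adjusted p = 0.00388), did not pass with compound 4 (0.13, adjusted p = 0.0680) and rose by 0.23 with compound 5 (adjusted p = 0.00248). MCM6 rlog was 11.10, 11.17 and 11.12 with vehicle, 10.97, 11.08 and 10.79 with compound 1, 11.19, 11.14 and 11.20 with compound 4, and 11.37, 11.26 and 11.30 with compound 5. It fell by 0.19 with compound 1 (adjusted p = 0.0138) and rose by 0.18 with compound 5 (adjusted p = 0.00532), while the compound 4 libraries overlapped vehicle (0.04, adjusted p = 0.519). MCM7 rlog was 11.79, 11.90 and 11.82 with vehicle against 11.66, 11.77 and 11.44 with compound 1, a fall by 0.22 (adjusted p = 0.0118). It did not pass with compound 4 (0.12, adjusted p = 0.0985) or compound 5 (0.09, adjusted p = 0.216). MCM2, MCM4 and MCM5 rose with both compounds, by 0.20, 0.16 and 0.19 with compound 4 and by 0.16, 0.26 and 0.23 with compound 5. With compound 1 they differed by -0.10, -0.15 and -0.19 and did not pass (adjusted p = 0.353, 0.0598 and 0.0540). MCM2 was at 0.09 with compound 5 without compound 5 replicate 1 (adjusted p = 0.229), and this call was also lost without compound 5 replicate 3 and without vehicle replicate 1 or 3. With compound 4, MCM2 was lost without compound 4 replicate 2 or vehicle replicate 3, MCM4 without compound 4 replicate 2 or vehicle replicate 1, and MCM5 without compound 4 replicate 2 or vehicle replicate 1 or 3 (lowest differences 0.17, 0.13 and 0.14). MCM5 with compound 5 was lost without vehicle replicate 1 (0.18, adjusted p = 0.0639). With compound 1, the falls of MCM6 and MCM7 were lost without compound 1 replicate 3 (-0.11 and -0.12) or vehicle replicate 2, and that of MCM3 without vehicle replicate 2 (adjusted p = 0.0507).

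All 6 helicase activation genes rose with compound 4 and all 6 with compound 5, and CDC45 fell with compound 1. MCM10, a scaffold that helps the loaded helicase start unwinding, had the largest difference of the 45 genes under compound 5. Its rlog was 7.88, 8.09 and 8.12 with vehicle, 7.92, 8.05 and 7.74 with compound 1, 8.57, 8.59 and 8.46 with compound 4, and 8.65, 8.62 and 8.59 with compound 5. The compound 4 and 5 libraries stood clear of the other 6. MCM10 rose by 0.51 with compound 4 (SE 0.0621, 1.42-fold, adjusted p = 1.86e-07) and by 0.59 with compound 5 (1.51-fold, adjusted p = 3.11e-08). CDC45, the helicase cofactor, had an rlog of 8.88, 8.94 and 8.93 with vehicle, 8.67, 8.75 and 8.65 with compound 1, 9.17, 9.20 and 9.11 with compound 4, and 9.25, 9.06 and 9.11 with compound 5. No compound library overlapped the vehicle libraries: those of compound 1 lay below, the others above. It fell by 0.23 with compound 1 (SE 0.0468, adjusted p = 0.00203), the call that held under 13 of 15 alternatives, more than any other fall, and was lost under a minimum difference of 0.1 and with the nuclear RNA covariate. CDC45 rose by 0.25 with compound 4 (adjusted p = 0.000118) and by 0.22 with compound 5 (adjusted p = 0.000452).

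The GINS complex, whose 4 subunits sit between CDC45 and the MCM ring, rose in all 4 subunits. The differences with compound 4 were 0.16, 0.22, 0.30 and 0.41 for GINS1, GINS2, GINS3 and GINS4, and with compound 5 they were 0.21, 0.42, 0.27 and 0.21. GINS1 with compound 4 was lost without compound 4 replicate 2 or 3 and without vehicle replicate 1 or 3 (lowest difference 0.13, adjusted p up to 0.132). GINS2 rlog was 8.40, 8.60 and 8.43 with vehicle, 8.68, 8.66 and 8.74 with compound 4, and 8.94, 8.81 and 8.93 with compound 5. GINS4 rlog was 8.36, 8.44 and 8.35 with vehicle, 8.72, 8.80 and 8.85 with compound 4, and 8.72, 8.53 and 8.53 with compound 5. The order of the compounds was thus opposite for these subunits: GINS2 was higher with compound 5, without overlap, and GINS4 was higher with compound 4, with overlap at 8.72. Between compounds 5 and 4, the GINS2 call held under 12 of 15 alternatives and the GINS4 call under 10. With compound 1 the 4 subunits differed by -0.06, -0.03, -0.04 and -0.14, and 0 passed.

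Of the 5 clamp and loader genes, 3 rose with compound 4, 4 rose with compound 5 and 2 fell with compound 1. PCNA, the sliding clamp, had an rlog of 10.50, 10.63 and 10.55 with vehicle, 10.43, 10.52 and 10.28 with compound 1, 10.71, 10.79 and 10.73 with compound 4, and 10.91, 10.84 and 10.92 with compound 5. Its libraries formed separate steps for vehicle, compound 4 and compound 5, while those of compound 1 overlapped vehicle. PCNA fell by 0.15 with compound 1 (adjusted p = 0.0364), rose by 0.18 with compound 4 (adjusted p = 0.00347) and rose by 0.33 with compound 5 (adjusted p = 4.35e-06). The RFC subunits load PCNA onto primed DNA. RFC4 rlog was 9.43, 9.51 and 9.49 with vehicle and 9.26, 9.42 and 9.26 with compound 1, a fall by 0.17 (adjusted p = 0.0138), and it did not pass with compound 4 (0.06, adjusted p = 0.296) or compound 5 (0.11, adjusted p = 0.0587). RFC3 rose by 0.24 with compound 4 and 0.16 with compound 5, and RFC5 by 0.12 and 0.19. RFC2 rose with compound 5 (0.13, adjusted p = 0.0255) and was at 0.07 with compound 4 (adjusted p = 0.232). Several of these calls were lost when 1 library was left out. RFC5 with compound 4 was lost without compound 4 replicate 1 or 2 and without vehicle replicate 1 or 3 (lowest difference 0.07), RFC3 with compound 5 without compound 5 replicate 1 (0.13), and RFC2 with compound 5 without that library or vehicle replicate 1 or 3 (lowest 0.10). The falls of PCNA and RFC4 with compound 1 were lost without compound 1 replicate 1 or 3 and without vehicle replicate 2 or 3 (smallest falls -0.09 and -0.14).

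Differences were small in the single-strand binding complex, which coats unwound DNA. RPA1, its largest subunit, differed by 0.0059, -0.02 and 0.06 with compounds 1, 4 and 5, none of which passed (adjusted p = 0.959, 0.764 and 0.247), with 95% intervals from -0.08 to 0.09, -0.11 to 0.07 and -0.02 to 0.15. RPA2 rose with compound 4 (0.11, adjusted p = 0.0400), a call lost under 5 of the 6 fits that left out 1 library (lowest difference 0.07), and did not pass with compound 5 (0.02, adjusted p = 0.714). RPA3 rlog was 9.65, 9.58 and 9.61 with vehicle, 9.61, 9.63 and 9.67 with compound 4, and 9.73, 9.75 and 9.76 with compound 5. Only with compound 5 did every library lie above every vehicle library, and RPA3 rose there by 0.14 (adjusted p = 0.00639).

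Of the 6 polymerase and primase genes, 3 passed upward with compound 4, 4 passed upward with compound 5 and 2 passed downward with compound 1. POLA1, the catalytic subunit of polymerase alpha, had an rlog of 8.91, 9.03 and 9.08 with vehicle and 8.89, 8.87 and 8.82 with compound 1, a fall by 0.15 (adjusted p = 0.0464). POLA1 did not pass with compound 4 (0.06, adjusted p = 0.322) or compound 5 (0.08, adjusted p = 0.235). POLA2, the accessory subunit of the same enzyme, rose by 0.20 and 0.32 (adjusted p = 0.000543 and 2.28e-06). Its exons share 2012 bases with another annotated gene on the same strand, so reads may be split between them. PRIM1, which makes the RNA primer, rose by 0.13 and 0.20 (adjusted p = 0.0367 and 0.00310). POLD1, the catalytic subunit of the lagging strand polymerase delta, had an rlog of 10.10, 10.18 and 10.15 with vehicle and 9.98, 10.10 and 9.94 with compound 1, touching at 10.10. It fell by 0.13 with compound 1 (adjusted p = 0.0376) and did not pass with compound 4 (0.09, adjusted p = 0.0761) or compound 5 (0.06, adjusted p = 0.316). POLE, the catalytic subunit of the leading strand polymerase epsilon, rose by 0.14 and 0.15 (adjusted p = 0.0383 and 0.0291). Its accessory subunit POLE2 rose by 0.15 with compound 5 (adjusted p = 0.0139) and was at 0.08 with compound 4 (adjusted p = 0.163). The compound 5 difference of POLE was 0.07 without compound 5 replicate 1 (adjusted p = 0.256), and the call was also lost without vehicle replicate 1 or 3. With compound 4 it was lost without compound 4 replicate 2 or 3 and without vehicle replicate 1 (0.10) or 3. PRIM1 with compound 4 was lost without compound 4 replicate 1 or 3 and without vehicle replicate 1 or 3 (lowest 0.10), and POLE2 with compound 5 without vehicle replicate 1 (0.10, adjusted p = 0.144). The falls with compound 1 were lost under 5 of 6 such fits for POLA1, all but that without vehicle replicate 1, and under 4 for POLD1, all but those without vehicle replicate 1 and compound 1 replicate 2 (smallest falls -0.11 and -0.10).

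In Okazaki fragment maturation, FEN1, the flap endonuclease, rose by 0.23 with compound 4 (adjusted p = 0.00746) and by 0.28 with compound 5 (adjusted p = 0.00222). LIG1, the ligase that seals the fragments, differed by 0.09 with both and did not pass (adjusted p = 0.0935 and 0.115). The subunits of ribonucleotide reductase, the enzyme that makes deoxynucleotides, gave separate calls and were not tested against each other. RRM2, the small subunit whose level follows S phase, had an rlog of 12.33, 12.39 and 12.37 with vehicle, 12.31, 12.45 and 12.17 with compound 1, 12.70, 12.79 and 12.68 with compound 4, and 12.84, 12.71 and 12.78 with compound 5. RRM2 rose by 0.36 (1.28-fold, adjusted p = 1.20e-06) and 0.42 (1.33-fold, adjusted p = 2.29e-07) with compounds 4 and 5. Exons of RRM2 share 1077 bases with AC007240.1 on the same strand, a gene not among those tested. RRM1, the large subunit, had an rlog of 11.67, 11.72 and 11.68 with vehicle, 11.53, 11.59 and 11.40 with compound 1, 11.70, 11.76 and 11.72 with compound 4, and 11.71, 11.58 and 11.67 with compound 5. Its compound 4 and 5 libraries overlapped the vehicle libraries (0.04 and -0.04, adjusted p = 0.493 and 0.566), and its compound 1 libraries lay below them (fell by 0.18, adjusted p = 0.00633), a call lost without compound 1 replicate 3 (-0.13, adjusted p = 0.0647). TYMS, the thymidylate synthase, rose by 0.23 and 0.26 with compounds 4 and 5 (adjusted p = 0.000429 and 0.000100). Its exons share 967 bases with ENOSF1 on the opposite strand, so this value is uncertain.

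**Figure D3:**
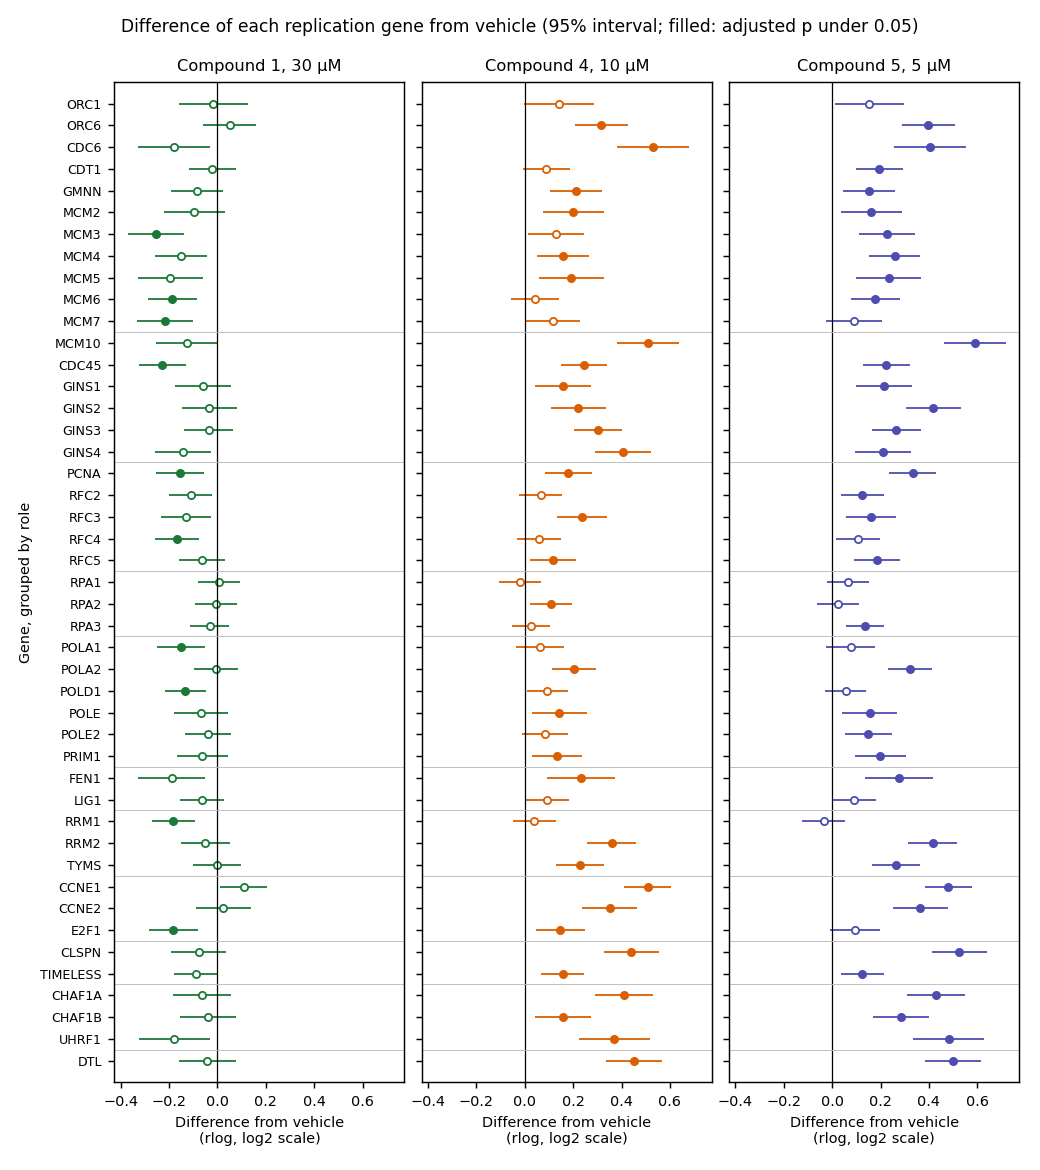
Points are the difference of each of the 45 genes from vehicle under each compound (x axis, rlog on the log2 scale), lines are 95% intervals from limma, and filled points passed an adjusted p under 0.05. Filled points number 10 on the negative side for compound 1, and 31 and 35 on the positive side for compounds 4 and 5, with RPA1, LIG1 and ORC1 open in all 3 panels.

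Both cyclin E genes, which encode the cyclins that drive G1 cells into S phase with CDK2, rose with compounds 4 and 5. CCNE1 rlog was 7.43, 7.50 and 7.40 with vehicle, 7.47, 7.60 and 7.60 with compound 1, 7.99, 7.97 and 7.89 with compound 4, and 7.93, 7.96 and 7.88 with compound 5. All 6 compound 4 and 5 libraries stood well above the other 6, and the compound 1 libraries overlapped vehicle. CCNE1 rose by 0.51 (SE 0.0474, 1.42-fold, adjusted p = 1.65e-09) and 0.48 (adjusted p = 1.01e-08), and its difference with compound 1 was 0.11 (adjusted p = 0.142), the highest of the 45 genes there. CCNE2 rose by 0.35 and 0.36 (adjusted p = 1.02e-05 and 9.92e-06), though its exons share 1629 bases with INTS8 on the opposite strand. E2F1, the transcription factor that drives many of these genes, had an rlog of 11.45, 11.57 and 11.44 with vehicle, 11.33, 11.43 and 11.15 with compound 1, 11.65, 11.64 and 11.61 with compound 4, and 11.62, 11.52 and 11.61 with compound 5. Its compound 1 libraries lay below vehicle and its compound 4 libraries above, while those of compound 5 overlapped. E2F1 fell by 0.18 with compound 1 (adjusted p = 0.0175), rose by 0.15 with compound 4 (adjusted p = 0.0193) and did not pass with compound 5 (0.09, adjusted p = 0.143). The fall was lost without compound 1 replicate 3 (-0.11) or vehicle replicate 2, and the rise without compound 4 replicate 1 or 2 or vehicle replicate 1 or 3 (lowest 0.13).

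CLSPN encodes claspin, which keeps forks moving and carries the ATR signal to CHK1. CLSPN rlog was 8.68, 8.84 and 8.90 with vehicle, 8.73, 8.85 and 8.60 with compound 1, 9.29, 9.25 and 9.20 with compound 4, and 9.35, 9.29 and 9.36 with compound 5. It rose by 0.44 (SE 0.0553, 1.36-fold, adjusted p = 2.93e-07) and 0.53 (1.44-fold, adjusted p = 3.11e-08) with compounds 4 and 5, without overlap with vehicle. TIMELESS, another fork protection gene, rose by 0.16 and 0.13 (adjusted p = 0.00512 and 0.0265), the latter lost without compound 5 replicate 1 or vehicle replicate 1 (lowest 0.09). DTL is the substrate receptor of the ubiquitin ligase that degrades CDT1 once forks have formed. DTL rlog was 8.65, 8.84 and 8.75 with vehicle, 8.76, 8.77 and 8.59 with compound 1, 9.16, 9.26 and 9.18 with compound 4, and 9.38, 9.15 and 9.22 with compound 5. The groups of compounds 4 and 5 again lay above all other libraries, and DTL rose by 0.45 (1.37-fold, adjusted p = 3.13e-07) and 0.50 (1.41-fold, adjusted p = 1.20e-07).

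All 3 genes that rebuild chromatin and copy its marks behind the fork rose with compounds 4 and 5. UHRF1, which recruits the maintenance DNA methyltransferase to newly copied DNA, had an rlog of 9.22, 9.46 and 9.37 with vehicle, 9.24, 9.30 and 8.98 with compound 1, 9.75, 9.81 and 9.61 with compound 4, and 9.99, 9.70 and 9.81 with compound 5. UHRF1 rose by 0.37 (SE 0.0713, adjusted p = 0.000139) and 0.48 (1.40-fold, adjusted p = 6.52e-06), and its difference with compound 1 was -0.18 (adjusted p = 0.109). CHAF1A, the large subunit of the chromatin assembly factor that deposits histones at the fork, had an rlog of 9.51, 9.70 and 9.65 with vehicle, 9.62, 9.67 and 9.36 with compound 1, 10.05, 10.06 and 9.97 with compound 4, and 10.10, 10.05 and 9.99 with compound 5. It rose by 0.41 and 0.43 (adjusted p = 2.23e-06 and 1.94e-06), with no overlap between those libraries and vehicle. CHAF1B, its middle subunit, rose by 0.16 and 0.28 (adjusted p = 0.0276 and 0.000287), the former lost without compound 4 replicate 1 or 2 or vehicle replicate 1 (lowest 0.10).

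**Figure D4:**
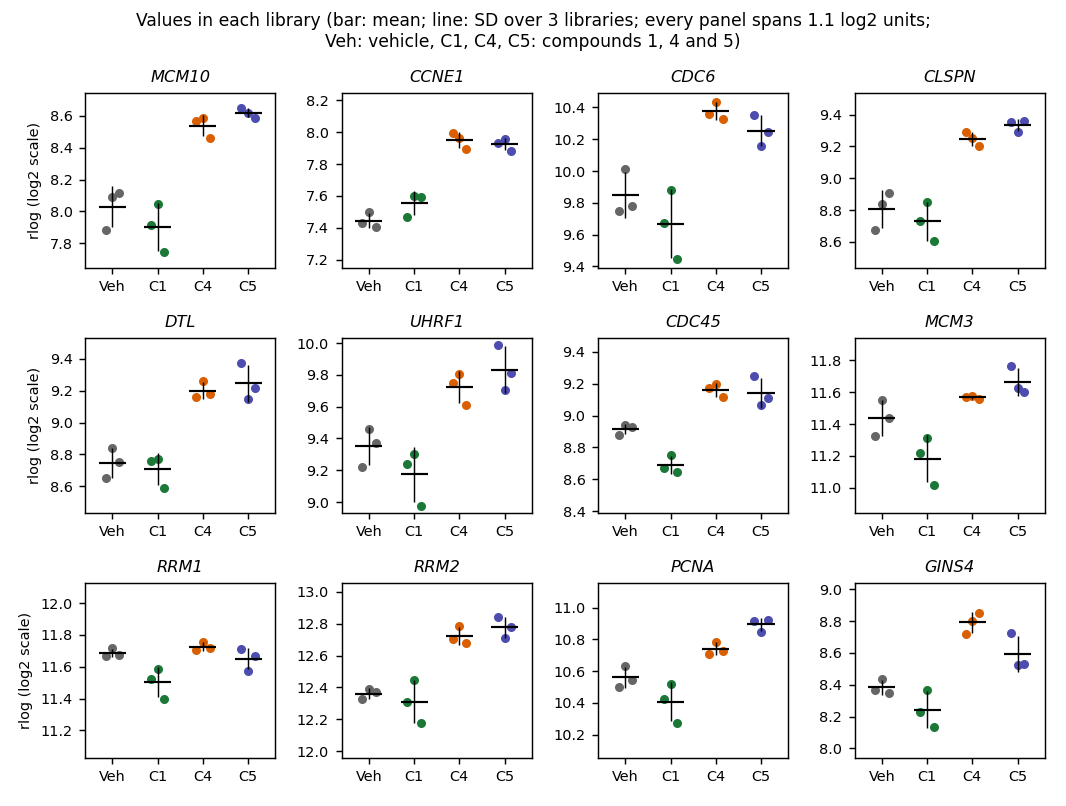
Points are the rlog (log2 scale) of 12 genes in the 3 libraries of each group, bars are group means and lines are the SD, and every panel spans the same range. MCM10, CCNE1, CDC6, CLSPN, DTL, UHRF1 and RRM2 are raised under compounds 4 and 5, CDC45, MCM3 and RRM1 are lower under compound 1, RRM1 stays at the vehicle level under compounds 4 and 5, and GINS4 is highest under compound 4.

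Not every rise held under other settings. With compound 4, 15 of the 31 rises held under all 15 alternatives and left-out libraries: CCNE1, CCNE2, CDC45, CDC6, CHAF1A, CLSPN, DTL, GINS3, GINS4, MCM10, ORC6, RFC3, RRM2, TYMS and UHRF1. With compound 5, 17 of 35 did: CCNE1, CCNE2, CDC6, CHAF1A, CHAF1B, CLSPN, DTL, GINS2, GINS3, MCM10, MCM4, ORC6, PCNA, POLA2, RRM2, TYMS and UHRF1. Smaller rises such as those of RFC5 and RPA2 with compound 4 held under only 6 and 7 of the 15.

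Between libraries of the same group, the 45 genes moved together. In vehicle replicate 1, 3 of 45 genes were above their vehicle mean, and in replicate 2 it was 43. In compound 1 replicates 1, 2 and 3 the counts above the group mean were 35, 45 and 1, and in compound 5 they were 41, 7 and 17. Compound 4 was the most even, with 21, 33 and 14. Over all tested genes the share above the group mean stayed between 47.1% and 52.2% in the 12 libraries. The 45 genes are thus not independent readings of a group, and their median residual SD, 0.0804, exceeded the 0.0468 of all tested genes.

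The compounds were also set against each other, as treatments at unequal doses (30, 10 and 5 µM), so these differences are not between compounds at a matched dose. Against compound 1, 41 of the 45 genes were higher with compound 4 (median difference 0.27) and 42 with compound 5 (median 0.30), and 0 were lower in either, also at an unadjusted p under 0.05. Of all tested genes, 20.9% were higher and 21.8% lower in the former comparison, and 13.9% and 16.2% in the latter. CDC6 exceeded its compound 1 level by 0.71 with compound 4, and MCM10 exceeded its own by 0.72 with compound 5. RPA1, with differences of -0.02 and 0.06 (adjusted p = 0.678 and 0.320), and ORC1, with 0.16 and 0.17 (adjusted p = 0.0683 and 0.0652), passed in neither.

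Compounds 4 and 5 differed for few of the genes. With compound 5, 4 (8.89%) were higher than with compound 4, against 10.7% of all tested genes. This share does not set the 45 genes apart. In the other direction 1 (2.22%) was lower, against 11.4%, and the median difference was 0.04. Without compound 5 replicate 1 that median was -0.00143. GINS2 was higher by 0.20 (95% interval 0.08 to 0.31, adjusted p = 0.0103), PCNA by 0.15 (0.05 to 0.25, adjusted p = 0.0220), MCM6 by 0.14 (0.04 to 0.24, adjusted p = 0.0460) and RPA3 by 0.11 (0.03 to 0.19, adjusted p = 0.0389). GINS4 was lower, at -0.20 (-0.31 to -0.08, adjusted p = 0.0117). None of the 5 calls held under every alternative: GINS2 was lost without compound 4 replicate 2, GINS4 without compound 5 replicate 2, without its replicate 3 and without compound 4 replicate 3, MCM6 under 5 of the 6 fits that left out 1 library, RPA3 under 4 and PCNA under 3, and all 5 without the filter on low values and under a minimum difference of 0.1. The count of higher genes fell to 1 without compound 5 replicate 3, without compound 4 replicate 1 or without compound 4 replicate 2, and to 2 without compound 4 replicate 3. Genes that did not pass may still differ within their intervals: for MCM10 the difference was 0.08 (-0.05 to 0.21), for CDC6 -0.12 (-0.27 to 0.03) and for RRM2 0.06 (-0.05 to 0.16).

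Around the 45, lists of related genes were counted whole, and the genes named from them are among their largest calls in each direction. The counts stand against 5.24% of all tested genes that rose and 5.63% that fell with compound 1, 19.0% and 21.6% with compound 4, and 15.9% and 19.2% with compound 5, and no list was tested against the rest. Of 35 tested other replisome subunits, 18 rose (51.4%) and 2 fell with compound 4, 16 rose (45.7%) and 2 fell with compound 5, and 0 passed with compound 1 (7 lower and 0 higher at an unadjusted p under 0.05). TONSL rose by 0.36 and 0.38 with compounds 4 and 5, and the helicase RECQL4 by 0.35 and 0.35. RFC1, the large loader subunit, fell by 0.15 and 0.12, and POLD2, an accessory subunit of polymerase delta, fell by 0.15 and 0.12. Of 30 other G1/S and E2F genes, 14 rose (46.7%) and 2 fell with compound 4, 16 rose (53.3%) and 4 fell with compound 5, and 4 fell with compound 1. CDC25A, the phosphatase that activates CDK2, rose by 0.61 and 0.50, and EXO1 by 0.43 and 0.45, while the E2F repressor gene E2F7 fell by 0.16 and 0.29.

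Of 34 other nucleotide supply genes, 13 rose (38.2%) and 7 fell (20.6%) with compound 4, 9 rose (26.5%) and 6 fell (17.6%) with compound 5, and 4 fell (11.8%) with compound 1. The shares that fell with compounds 4 and 5 were close to the 21.6% and 19.2% of all tested genes. CTPS1, which makes CTP, fell by 0.16 with compound 1 and rose by 0.35 and 0.20 with compounds 4 and 5. MTHFD2, a mitochondrial enzyme that feeds purine synthesis, fell by 0.27 and 0.36 with compounds 4 and 5. TK1, which sits in thymidylate supply, rose by 0.23 with compound 5. SAMHD1, which breaks down deoxynucleotides, fell by 0.27, 0.14 and 0.14 with compounds 1, 4 and 5.

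Of 15 replication checkpoint genes, 4 rose (26.7%) and 2 fell (13.3%) with compound 4, 3 rose and 1 fell (6.67%) with compound 5, and 0 passed with compound 1 (1 higher and 1 lower at an unadjusted p under 0.05). Of 13 tested replication-dependent histone genes, whose RNAs mostly lack poly(A) tails and are thus poorly captured here, 5, 4 and 2 rose with compounds 4, 5 and 1 (38.5%, 30.8% and 15.4%). Of 36 G2 and mitosis genes, 5 rose (13.9%) and 7 fell (19.4%) with compound 4, 8 rose (22.2%) and 10 fell (27.8%) with compound 5, and 15 fell (41.7%) with compound 1. Against all tested genes, at 19.0% and 21.6% with compound 4 and 15.9% and 19.2% with compound 5, these shares of the checkpoint and mitotic lists set neither list apart. CDC20, PLK1 and AURKA fell by 0.29, 0.26 and 0.25 with compound 1. CDK1 rose by 0.23 and 0.28 with compounds 4 and 5, where ECT2 of the same list fell by 0.25 and 0.28. Medians of the G2 and mitosis list were -0.11, -0.00677 and -0.03 with compounds 1, 4 and 5, against -0.08, 0.16 and 0.21 for the 45 genes.

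**Figure D5:**
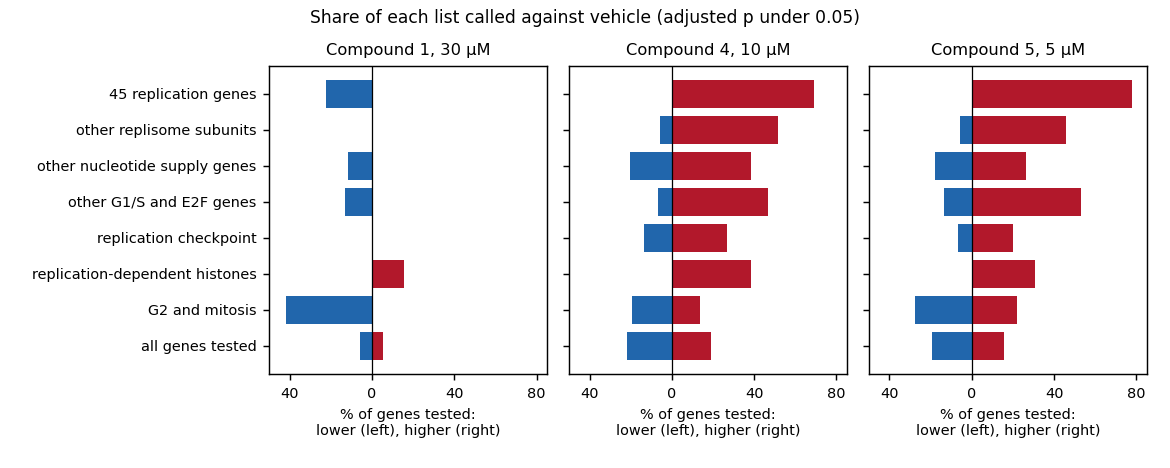
Bars give the percentage of tested genes of each list that were lower (left, blue) or higher (right, red) than vehicle at an adjusted p under 0.05, for each compound. The 45 replication genes reach 68.9% and 77.8% higher under compounds 4 and 5 against 19.0% and 15.9% of all tested genes, and the G2 and mitosis list has its longest bar on the lower side under compound 1, at 41.7%.

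Exons of 21 of the 45 genes share bases with another annotated gene, and for 14 of them that partner was itself among the tested genes. Whether reads were counted by strand is unstated, so reads of such pairs could not be told apart. Counting by strand would not separate pairs on the same strand. Besides that of POLA2, these include RRM2 with AC007240.1 (1077 bases), POLD1 with AC020909.1 (426 bases) and PRIM1 with AC117378.1 (362 bases), whose partners were not among the tested genes. With tested partners they include CHAF1B with MORC3 (89 bases) and FEN1 with FADS2 (49 bases). Besides POLA2, TYMS and CCNE2, the longer overlaps with a tested partner were those of MCM7 with AP4M1 (392 bases), RFC5 with WSB2 (186 bases), FEN1 with TMEM258 (166 bases) and RPA1 with SMYD4 (156 bases), all on opposite strands.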

How the data were processed

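Total RNA was DNase-treated, poly(A) RNA was selected and libraries were sequenced in pairs, per the labels' protocols. The submitters' processing notes name STAR 2.7.10a, DESeq2 1.30.1 and the build GRCh38, while the counter, its strand setting and the annotation release were not given in the sources used here. The authors deposited 1 table of rlog values on the log2 scale, with no counts, so depth is unknown and no count test was run. Columns were matched to samples by library name. Gene symbols came from a gene name table, which matched 62686 of 62757 identifiers, and coordinates and exon overlaps from GENCODE 29 (GRCh38).

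Genes with a mean rlog of at least 3 were fitted with limma 3.58.1 in R 4.3.3 (1 mean per group over all 12 libraries, 8 residual degrees of freedom, a mean-variance trend), and p-values were adjusted by Benjamini-Hochberg over all 15524 genes in each comparison. The scripts were tested on simulated data. Intervals are 95% intervals of the fit. Shrinkage in rlog lowers both differences and spread of genes with few reads. The 45 genes, the other lists and the tests were chosen with earlier results of these data known, and every one of the 45 could be named. Genes of other lists were named from the largest calls in each direction. The labels number the replicates 1 to 3 in every group without saying that a number marks a shared day or culture, and no block entered the fit. Alternatives were no filter, a stricter filter (mean of 5), libraries centred on their medians, quantile normalization of the libraries, a fit of just the 2 groups compared, no trend, a minimum difference of 0.1, the replicate number as a block, a nuclear RNA covariate, and leaving out each library in turn.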

Additional observations from a re-analysis of the deposited data

How the results depend on the processing

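No difference among the 45 genes that passed changed sign under any alternative. For compound 1 against vehicle, the 10 falls became 1 with no filter, 6 with no mean-variance trend, 0 with a minimum difference of 0.1 and 0 with the nuclear RNA covariate, and ranged from 2 to 18 when libraries were left out. For compound 4 the 31 rises became 20 with no filter and 15 with the minimum difference, and the median difference moved from 0.16 to 0.27 with the covariate. For compound 5 the 35 rises became 17 with the minimum difference, and the median moved from 0.21 to 0.33 with the covariate. For compound 5 against compound 4, the 4 higher genes became 0 with no filter, 0 with the minimum difference and 7 with the covariate, and 1 to 3 when libraries were left out, and the 1 lower gene became 0 with no filter, 0 with the minimum difference, and 0 to 1 when libraries were left out. A minimum difference asks for a larger change. With no filter, p-values were adjusted over 36998 genes and the fit and its trend were also redone on them. Which of the adjustment and the refit lost calls was not tested, nor was the cause of the other shifts. The nuclear RNA mean of every compound library lay above all vehicle libraries, so shifts with that covariate against vehicle are not corrections.

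Counts over all genes moved as well. With the minimum difference, the 1688 genes called with compound 1 became 149, the 6300 with compound 4 became 2357 and the 5443 with compound 5 became 1702. Between treatments, the 6627 of compound 4 against 1 became 2668, the 4666 of compound 5 against 1 became 1172 and the 3422 of compound 5 against 4 became 705. The count for compound 1 was 800 with no filter, 550 with the covariate and 849 to 1582 when libraries were left out, and that for compound 5 was 2813 with the covariate. With a library left out, the remaining 2 are assumed to vary like the other groups.

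Same-numbered libraries did not deviate together in every pair (r = 0.0132, 0.249 and 0.171 for vehicle and compound 1), so the numbers were not taken as pairs. With the replicate number as a block, 11 of the 45 genes fell with compound 1, 32 rose with compound 4 and 35 with compound 5. Against compound 1, 41 and 42 were higher with compounds 4 and 5, and 4 were higher and 1 lower with compound 5 than with compound 4. The counts over all genes with the block were 1706, 6309, 5484, 6627, 4690 and 3462 in the same order of comparisons. Depth is unknown, so no limit from read number can be given.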
